A study of Homo sapiens with 8 samples.

Results

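The trefoil factors and secreted mucosal defence proteins are a set of 10 genes: TFF1, TFF2, TFF3, AGR2, REG4, LCN2, SLPI, PIGR, WFDC2 and LYZ. Each was found by its symbol in the deposited count table, which holds 58870 genes. Of the 10 genes, 8 were listed by name. SLPI and LYZ were chosen by their higher counts in the ADRA2A libraries, the same contrast as described here, so their values are given as a description with no test. The samples were cells of CFPAC-1, an established line from a human pancreatic ductal adenocarcinoma, cultured untreated for 72 hours in IMDM medium with 10% serum and 1% penicillin and streptomycin. In 4 samples the cells carried the empty vector, and in the other 4 a transgene for overexpression of ADRA2A, which encodes an adrenergic receptor. All 8 samples derive from this 1 line, and the labels do not say whether the samples of a group were separate transductions or cultures, so p-values measure the spread between these samples. The promoter that drives the transgene is not given in the sources used here.

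These proteins are made by mucus-secreting and glandular epithelia of the gut, airway and pancreatic ducts. Trefoil factors are small, cysteine-rich peptides that are secreted with mucins and take part in repair of the epithelial surface, while AGR2 is a disulfide isomerase of the endoplasmic reticulum on which mucin folding depends. Several of the others act against microbes or against proteases of inflammatory cells. Lipocalin 2 (LCN2) binds bacterial siderophores and so withholds iron, lysozyme (LYZ) cuts bacterial cell walls, and SLPI inhibits neutrophil elastase. The polymeric immunoglobulin receptor (PIGR) carries IgA and IgM across the epithelium. Several of them mark gland-like, classical pancreatic tumours, the counterpart of the basal-like tumours that the study's title names.

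The set changed unevenly in the ADRA2A cells. LCN2 rose 2.77-fold (95% confidence interval 2.56 to 2.99), PIGR 1.82-fold (1.56 to 2.12), WFDC2 1.46-fold (1.35 to 1.59) and AGR2 1.13-fold (1.08 to 1.19). SLPI stood 4.04-fold and LYZ 2.82-fold higher. The trefoil factors did not follow: TFF2 stayed at a low level with a fold of 1.09 (0.929 to 1.27), TFF1 was near the limit of detection and TFF3 had 0 counts in all 8 libraries. REG4 had at most 6 counts in any library.

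Promoter sequences are shown for the 4 genes that passed the test, so that the letters upstream of the strongly changed LCN2 can be read beside those of PIGR, WFDC2 and AGR2. RefSeq's promoter table on GRCh38.p14 held 5 of the 10 genes, namely REG4, PIGR, AGR2, LCN2 and WFDC2. Each line gives the 250 bases before RefSeq's transcription start, 5′ to 3′ on the strand of the gene, and capitals mark matches to a searched motif. RefSeq's start differs from the outer end of the GENCODE gene span for LCN2 and AGR2, so their windows lie inside the spans given for these genes below.
LCN2 (chr9:128149203-128149452, plus strand): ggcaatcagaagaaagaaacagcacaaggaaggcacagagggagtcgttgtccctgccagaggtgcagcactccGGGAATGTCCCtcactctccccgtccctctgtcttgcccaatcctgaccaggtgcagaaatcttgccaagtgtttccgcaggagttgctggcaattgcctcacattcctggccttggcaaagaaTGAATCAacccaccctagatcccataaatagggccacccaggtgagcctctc
WFDC2 (chr20:45469503-45469752, plus strand): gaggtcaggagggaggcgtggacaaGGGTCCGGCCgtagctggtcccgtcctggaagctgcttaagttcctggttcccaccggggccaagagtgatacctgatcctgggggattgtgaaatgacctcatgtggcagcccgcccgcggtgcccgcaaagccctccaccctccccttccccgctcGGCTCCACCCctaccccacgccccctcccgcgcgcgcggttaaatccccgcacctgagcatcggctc
PIGR (chr1:206946467-206946716, minus strand): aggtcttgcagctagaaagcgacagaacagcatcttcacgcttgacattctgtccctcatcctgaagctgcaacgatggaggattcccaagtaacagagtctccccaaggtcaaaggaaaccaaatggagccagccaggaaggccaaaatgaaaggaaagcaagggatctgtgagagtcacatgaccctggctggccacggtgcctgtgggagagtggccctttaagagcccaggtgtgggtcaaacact
AGR2 (chr7:16805000-16805249, minus strand): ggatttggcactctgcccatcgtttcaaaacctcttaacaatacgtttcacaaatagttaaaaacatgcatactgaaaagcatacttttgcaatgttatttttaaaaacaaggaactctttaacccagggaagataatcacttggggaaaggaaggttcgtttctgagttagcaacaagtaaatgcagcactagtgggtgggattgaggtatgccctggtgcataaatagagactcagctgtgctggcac

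Of the searched motifs, LCN2 held the NF-kappaB-like motif, GGG and CC with 5 bases of any kind between them, on both strands from 176 to 166 bases before the start, as the overlapping matches GGGAATGTCC and GGAATGTCCC. It also held TGANTCA, the AP-1 motif, as TGAATCA from 52 to 46 bases before the start. WFDC2 held the NF-kappaB-like motif at 2 places, as GGGTCCGGCC and, from the other strand, GGCTCCACCC, and REG4 held TGANTCA and TATAAA, the TATA box. PIGR and AGR2 held none of the searched motifs, and TGACG, the core of the cyclic AMP response element, was in 0 of the 5 windows. With both strands searched, the NF-kappaB-like motif was in 54.4% of the 34943 windows of this length in the table, TGACG in 21.2%, TATAAA in 10.8% and TGANTCA in 6.59%. A match is a description of the letters and not evidence of binding.

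Values below are counts scaled by library size (CPM, or counts per 1000000 counts of the library), with library factors from the trimmed mean of M values (TMM). Library totals lay between 14427040 and 17528910 counts. The targeted gene ADRA2A had 0 counts in the empty-vector libraries and 112 to 172 counts in the ADRA2A libraries, or 9.20 ± 1.30 CPM (SD, n = 4). Of 14785 genes tested, 42.7% were called at a Benjamini-Hochberg adjusted p under 0.05 in edgeR's quasi-likelihood test, 21.6% higher and 21.1% lower in the ADRA2A cells, and for 39.2% the ranges of the groups were separate. In this set 7 of the 10 genes passed the filter on low counts, 5 of them listed by name, and of these 5, 4 were called higher and 0 lower. The rule that chose SLPI and LYZ used this same contrast, so nothing is read from that count.

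Epithelial markers were high in both groups, KRT8 at 4880 and 5039 CPM and EPCAM at 471 and 508 CPM (means, empty vector and ADRA2A), although CFTR, a duct marker, was at 0.708 and 0.431 CPM. Of 10 such markers 9 were tested, and 3 were called higher and 4 lower, beside 21.6% and 21.1% of all tested genes. Their log2 fold changes lay between -0.43 and 0.20. LYZ and LCN2 are also abundant in myeloid leukocytes, so leukocyte markers were examined. Of the 12 genes of that list 5 (CD163, LYZL1, FCGR3A, CD3E and ELANE) had 0 counts in all libraries. LYZL1 is a lysozyme-like gene and not a leukocyte marker, so nothing is read from its 0. PTPRC, the pan-leukocyte marker, had 7 counts summed over the empty-vector libraries and 3 over the ADRA2A libraries, and MPO, the neutrophil peroxidase, had 0 and 1. CD14, a monocyte marker, had 101 and 121 counts, or 1.56 and 1.93 CPM, and ITGAM had 21 and 17 counts. CD68, a lysosomal protein gene also expressed outside leukocytes, made up most of the summed level of the list. This sum was 90.4 to 96.8 CPM and 110 to 122 CPM. Of this list 2 genes were tested, and 1 was called higher and 0 lower, beside 21.6% and 21.1% of all tested genes. The call was of CD68 (log2 fold change 0.32, edgeR adjusted p = 4.22e-06), while CD14 was not called (edgeR adjusted p = 0.353). Of 10 fibroblast markers none was at 0 in all libraries, but COL1A1 at 78.4 and 23.9 CPM made up nearly all of their summed level (80.1 to 83.9 and 25.8 to 28.1 CPM). The endothelial list summed to 2.05 to 2.71 CPM and 2.64 to 3.35 CPM, with TEK, ERG, CLDN5 and EMCN at 0. Of that list PECAM1 rose from 0.773 to 2.44 CPM (log2 fold change 1.66; edgeR adjusted p = 8.12e-05) and KDR fell from 1.23 to 0.482 CPM (-1.35; edgeR adjusted p = 0.00234). Genes this low can pass the filter on low counts through the group where they are higher, so nothing is read from these calls.

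**Figure D1:**
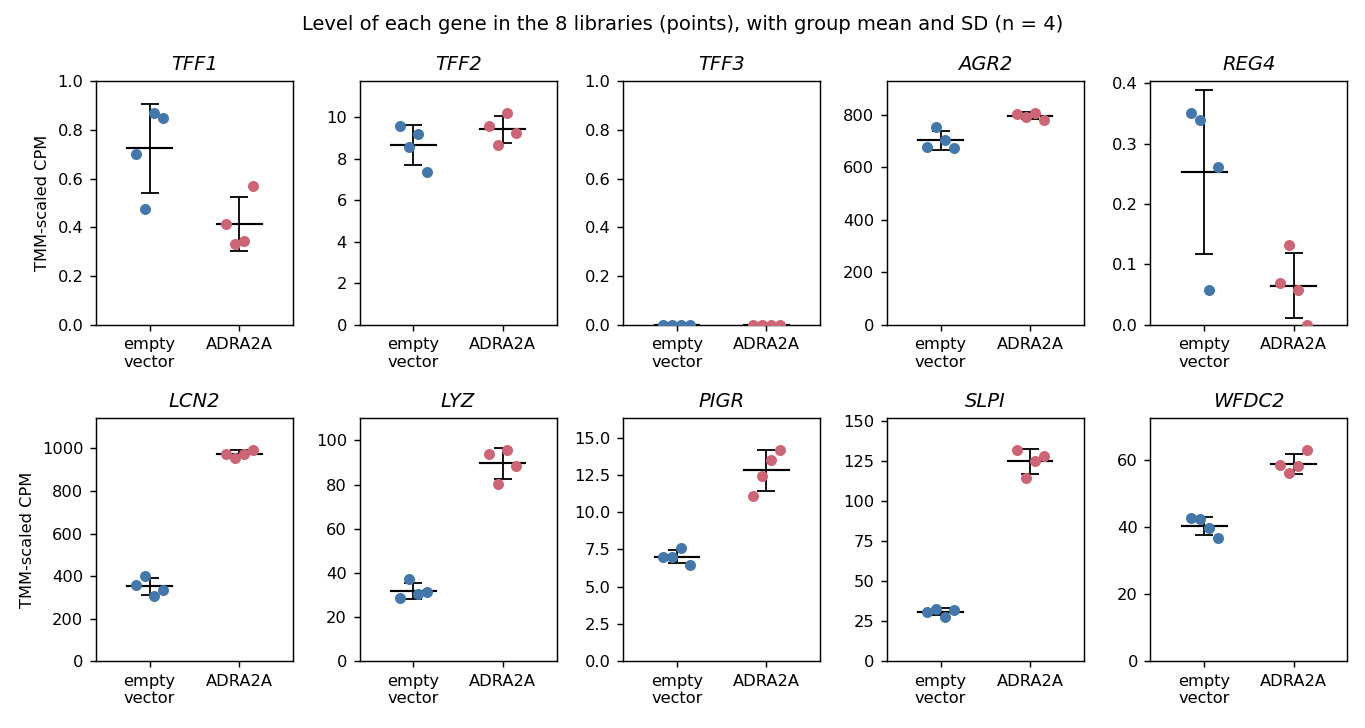
Level of each of the 10 genes in TMM-scaled CPM (vertical axes from 0, each panel with its own scale), with 1 point per library, group means as horizontal lines and SD as error bars (n = 4). LCN2, LYZ, PIGR, SLPI, WFDC2 and AGR2 show no overlap between the groups, TFF1, TFF2 and REG4 overlap, and TFF3 is at 0.

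The 3 trefoil factor genes lie side by side on chromosome 21 of GRCh38, all on the minus strand. TFF1 (ENSG00000160182.3, positions 42362282 to 42366535) is 11.3 kb from TFF2 (ENSG00000160181.9, 42346357 to 42350997), and TFF2 is 30.9 kb from TFF3 (ENSG00000160180.15, 42311667 to 42315409). TFF2, the trefoil peptide that the stomach secretes together with MUC6, was the only one of the 3 with over 100 counts in every library. Its level in empty-vector replicates 1 to 4 was 9.55, 8.55, 9.18 and 7.33 CPM, and in ADRA2A replicates 1 to 4 it was 9.55, 8.64, 10.2 and 9.23 CPM. The groups overlapped. The log2 fold change of TFF2 was 0.12 ± 0.11 (SE) with a 95% confidence interval of -0.11 to 0.35 (edgeR adjusted p = 0.395), so a rise as large as that of WFDC2 lies outside the interval.

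TFF1, the gastric trefoil peptide secreted with MUC5AC and a known estrogen target in breast, had 12, 7, 15 and 13 counts in the empty-vector libraries and 6, 5, 6 and 9 in the ADRA2A libraries. This amounted to 0.725 ± 0.183 and 0.414 ± 0.110 CPM (SD, n = 4 each), and the lowest empty-vector library, at 0.475 CPM, lay below the highest ADRA2A library, at 0.569 CPM. TFF1 did not pass the filter. In the 6 alternative fits that kept it, the log2 fold change lay between -1.0 and -0.71 and the edgeR adjusted p between 0.0678 and 0.265, so no difference was detectable at this depth. The fit without the filter, which gave the highest of these p-values, assumed the same spread around the trend for every gene. TFF3, the intestinal trefoil peptide of goblet cells, had 0 of 127337530 counts over the 8 libraries. A count of 0 allows up to 3 counts in a library, which is 0.172 to 0.208 CPM, so TFF3 was not detectable at this depth in either group.

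AGR2 (ENSG00000106541.12, chromosome 7, 16791811 to 16833433, minus strand) had the most counts of the 10 genes in the empty-vector cells. It was at 679, 753, 706 and 674 CPM there and at 805, 793, 808 and 779 CPM in the ADRA2A cells. All ADRA2A libraries lay above all empty-vector libraries, with a narrow gap between empty-vector replicate 2 and ADRA2A replicate 4. The log2 fold change of AGR2 was 0.18 ± 0.03 (SE; 95% confidence interval 0.11 to 0.25; edgeR adjusted p = 3.02e-04). AGR3, its close homologue and the next tested gene on the chromosome, rose by 1.57 on the log2 scale (edgeR adjusted p = 1.19e-08), from 3.90 ± 0.398 to 11.6 ± 1.86 CPM (SD, n = 4 each).

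REG4 (ENSG00000134193.15, chromosome 1, 119794017 to 119811580, minus strand) encodes a secreted C-type lectin of intestinal and enteroendocrine cells that is often raised in gastrointestinal tumours. It had 6, 5, 1 and 4 counts in the empty-vector libraries and 1, 2, 1 and 0 in the ADRA2A libraries. The groups overlapped, and REG4 was not tested. A fit without the filter gave -1.85 ± 0.98 (log2, SE; edgeR adjusted p = 0.174), with the same limit on its p as for TFF1.

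LCN2 (ENSG00000148346.12, chromosome 9, 128149071 to 128153453, plus strand) showed the largest fold change among the 5 tested genes listed by name. The empty-vector libraries were at 359, 403, 309 and 337 CPM and the ADRA2A libraries at 975, 954, 974 and 994 CPM. Every ADRA2A library exceeded every empty-vector library, and the ADRA2A libraries were close together. The log2 fold change of LCN2 was 1.47 ± 0.05 (SE; 95% confidence interval 1.36 to 1.58; edgeR adjusted p = 5.97e-14), the 6th highest of the 2288 tested genes with a mean of at least 100 CPM. By mean CPM, which is not corrected for gene length, LCN2 moved from rank 416 among the 14785 tested genes in the empty-vector cells to rank 81 in the ADRA2A cells.

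The coefficient of variation of LCN2 was 11.3% in the empty-vector libraries and 1.69% in the ADRA2A libraries, and that of AGR2 was 5.16% and 1.66%. A list of 25 interferon-response genes was read because the empty-vector libraries were earlier reported to vary in them. Empty-vector replicate 3 was the lowest for LCN2, and it also had the lowest score on this list. That score, the mean log2 CPM of the list relative to its 8-library mean, was -0.03, -0.31, -0.72 and -0.41 in the empty-vector libraries and 0.31, 0.33, 0.36 and 0.46 in the ADRA2A libraries. Empty-vector replicate 2, the highest for LCN2, was not the highest on the interferon score. The part of this variation in the result was not tested, but leaving out each library in turn kept the log2 fold change of LCN2 between 1.41 and 1.54.

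LYZ (ENSG00000090382.6, chromosome 12, 69348381 to 69354234, plus strand) was at 28.6, 37.2, 30.6 and 31.2 CPM in the empty-vector cells and at 94.0, 80.3, 95.9 and 88.6 CPM in the ADRA2A cells. The groups did not overlap, and empty-vector replicate 2 stood above the other empty-vector libraries. The fitted log2 difference was 1.50 ± 0.07 (SE). An antisense long non-coding gene overlaps LYZ in the annotation and had 0 counts in both groups.

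PIGR (ENSG00000162896.6, chromosome 1, 206928522 to 206946466, minus strand), whose cleaved ectodomain becomes the secretory component of IgA, was expressed at a low level. Its values were 7.03, 6.99, 7.61 and 6.48 CPM in the empty-vector libraries and 11.1, 12.4, 13.5 and 14.2 CPM in the ADRA2A libraries. The groups were separate, and the ADRA2A libraries were more spread than the empty-vector libraries. PIGR rose by 0.86 ± 0.11 on the log2 scale (SE; 95% confidence interval 0.64 to 1.08; edgeR adjusted p = 1.57e-06).

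SLPI and WFDC2 belong to the WAP (whey acidic protein) family, and their genes lie 215 kb apart in the WAP gene cluster of chromosome 20, with 4 tested genes between them. SLPI (ENSG00000124107.5, 45252239 to 45254564, minus strand) was at 31.0, 32.4, 27.9 and 32.3 CPM in the empty-vector libraries and at 132, 114, 125 and 128 CPM in the ADRA2A libraries. No library of one group came near those of the other. Its fitted log2 difference was 2.01 ± 0.06 (SE). WFDC2 (ENSG00000101443.18, 45469753 to 45481532, plus strand), which encodes the secreted protein HE4 used as a serum marker of ovarian cancer, was at 42.6, 42.5, 39.6 and 36.7 CPM and at 58.4, 56.0, 58.2 and 63.1 CPM. The groups of WFDC2 did not overlap, and its log2 fold change was 0.55 ± 0.06 (SE; 95% confidence interval 0.43 to 0.66; edgeR adjusted p = 1.83e-07).

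SLPI and WFDC2 are set side by side as a description, since SLPI was chosen by its rise. The ratio of SLPI to WFDC2 counts, into which no scaling enters, was 0.729, 0.762, 0.705 and 0.882 in the empty-vector libraries and 2.26, 2.04, 2.16 and 2.02 in the ADRA2A libraries. LCN2 and AGR2 are a pair chosen after their values were seen, and their ratio is likewise a description with no test. It was 0.529, 0.536, 0.437 and 0.50 in the empty-vector libraries and 1.21, 1.2, 1.21 and 1.28 in the ADRA2A libraries.

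**Figure D2:**
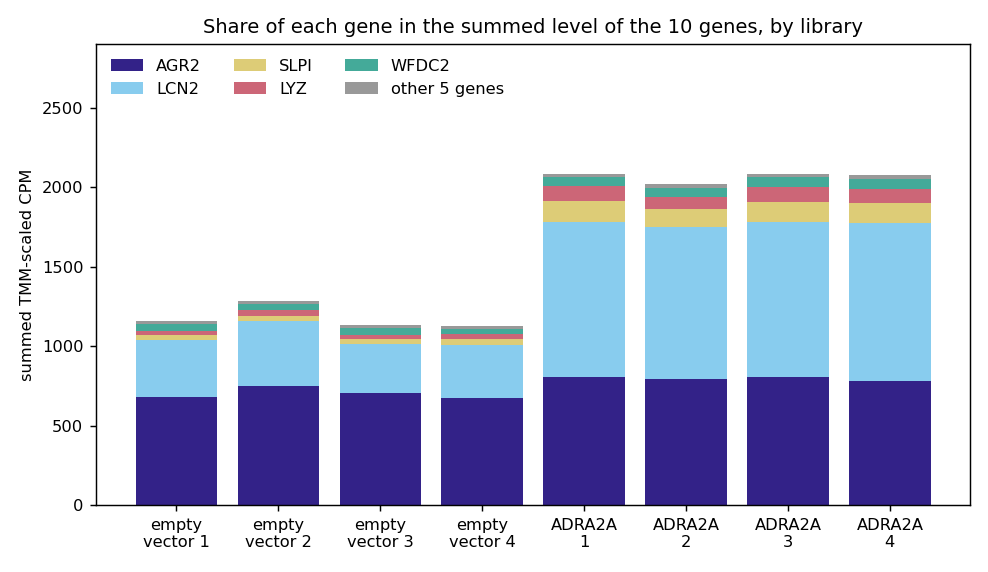
Summed level of the 10 genes in TMM-scaled CPM (vertical axis from 0), with 1 bar per library and 1 colour per gene, the 5 least abundant genes being merged. The empty-vector bars reach 1125 to 1285 CPM and the ADRA2A bars 2019 to 2086 CPM, and the LCN2 segment is the one that grows most.

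Together the 10 genes held 1175 ± 74.7 CPM with the empty vector and 2067 ± 32.3 CPM with ADRA2A (SD over 4 libraries each), or 0.117% and 0.207% of all counts. AGR2 and LCN2 made up most of this. The share of AGR2 in the sum was 59.9% ± 1.80 and 38.5% ± 0.742, and that of LCN2 was 29.9% ± 1.84 and 47.1% ± 0.542 (SD, n = 4 each). The fall in the share of AGR2 came with a higher level of AGR2 itself.

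To set the genes in order, each level was divided by the summed exon length of the gene in GENCODE release 44. This gives CPM per kb. The length joins all annotated exons of a gene and not the transcripts made in these cells, so close places in the order depend on it. In the empty-vector cells the order was AGR2 (254 ± 13.1), LCN2 (221 ± 25), SLPI (51.9 ± 3.52), WFDC2 (30.2 ± 2.12), LYZ (18.5 ± 2.15), TFF2 (12.4 ± 1.39), PIGR (1.61 ± 0.106), TFF1 (1.47 ± 0.372) and REG4 (0.0740 ± 0.0397), all in CPM per kb (SD, n = 4). The ranges of AGR2 and LCN2 overlapped between libraries, but within each empty-vector library LCN2 was below AGR2, at 0.757 to 0.927 times its CPM per kb. The ranges of PIGR and TFF1 overlapped too, and their order differed between libraries. In the ADRA2A cells LCN2 (610 ± 10.3 CPM per kb) stood above AGR2 (288 ± 4.79 CPM per kb) with no overlap, and SLPI (209 ± 12.8 CPM per kb) was the third. There LYZ (52.0 ± 4.06 CPM per kb) and WFDC2 (44.1 ± 2.24 CPM per kb) overlapped.

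**Figure D3:**
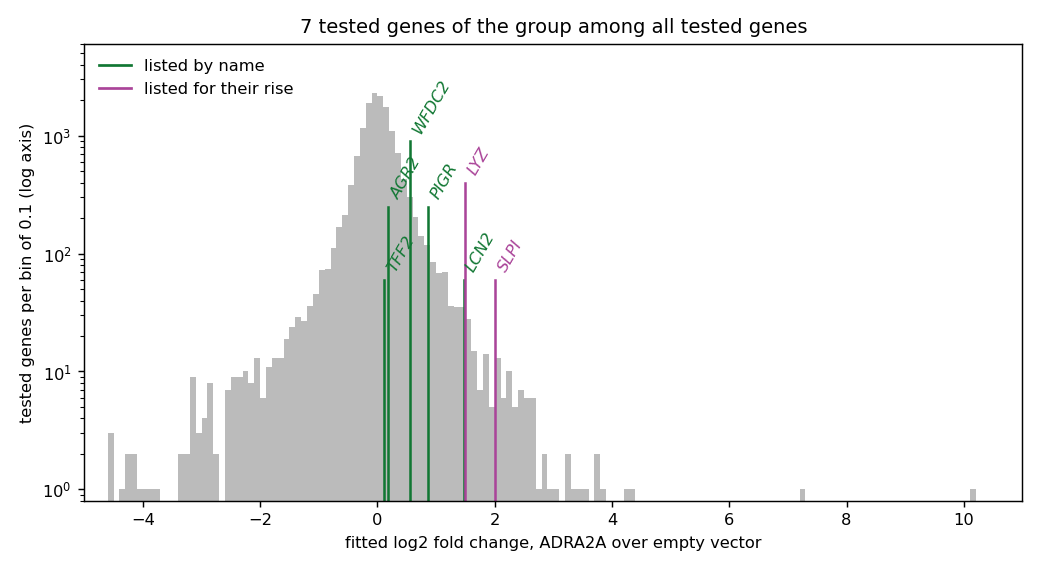
Histogram of the fitted log2 fold changes (ADRA2A over empty vector, horizontal axis) of the 14785 tested genes in bins of 0.1, with the number of genes on a log axis. Coloured lines mark the 7 tested genes of the set: TFF2 at 0.12 and AGR2 at 0.18 lie within the bulk, and LCN2 at 1.47, LYZ at 1.50 and SLPI at 2.01 lie in the upper tail.

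The genes most like SLPI and LYZ in profile were sought among the 10156 tested genes with a mean of at least 10 CPM. Likeness was the root-mean-square distance over the 8 libraries between log2 CPM values taken relative to the empty-vector mean. SLC14A1, a urea transporter gene, was closest to SLPI at a distance of 0.114, followed by NDRG2 (0.126) and SERPING1, the C1 inhibitor gene (0.139). For LYZ the closest were MAN1A1, a Golgi mannosidase gene (0.098), LCN2 (0.104) and SELPLG (0.115). Both genes were chosen by their rise, and the distance takes in the difference between the groups, so these names describe genes of similar fold and support nothing further.

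Neighbouring genes were examined because adjacent genes can shift together. Among the 20 nearest tested genes around LCN2, 10 on each side over 0.571 Mb, 4 were called higher and 1 lower, and the median log2 fold change was -0.02, with none above 0.90. Around SLPI 4 were higher and 7 lower, with a median of -0.06. Around WFDC2 3 were higher and 7 lower, with a median of -0.08. Those called higher included SLPI, which was chosen by its rise and had the highest value there, so nothing is read from its call. Around LYZ 2 were higher and 3 lower, with a median of 0.05. For AGR2 7 were higher and 6 lower, with a median of 0.00.

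Around REG4 10 neighbours were higher and 1 lower, with a median of 0.25. Of PIGR's 20 neighbours over 3.60 Mb, 8 were higher and 6 lower, and their median log2 fold change was 0.24. They included FCMR, the IgM Fc receptor gene directly beside it (1.11; edgeR adjusted p = 0.0226), and C4BPA, a complement regulator gene (2.66; edgeR adjusted p = 2.06e-07). On its other side C1orf116 fell by 0.47 on the log2 scale (edgeR adjusted p = 2.85e-08). Around TFF2 7 neighbours were higher and 1 lower, with a median of 0.05. FCMR and C4BPA were named after their values were seen. Each of these counts is read against the 42.7% of all tested genes that were called.

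**Figure D4:**
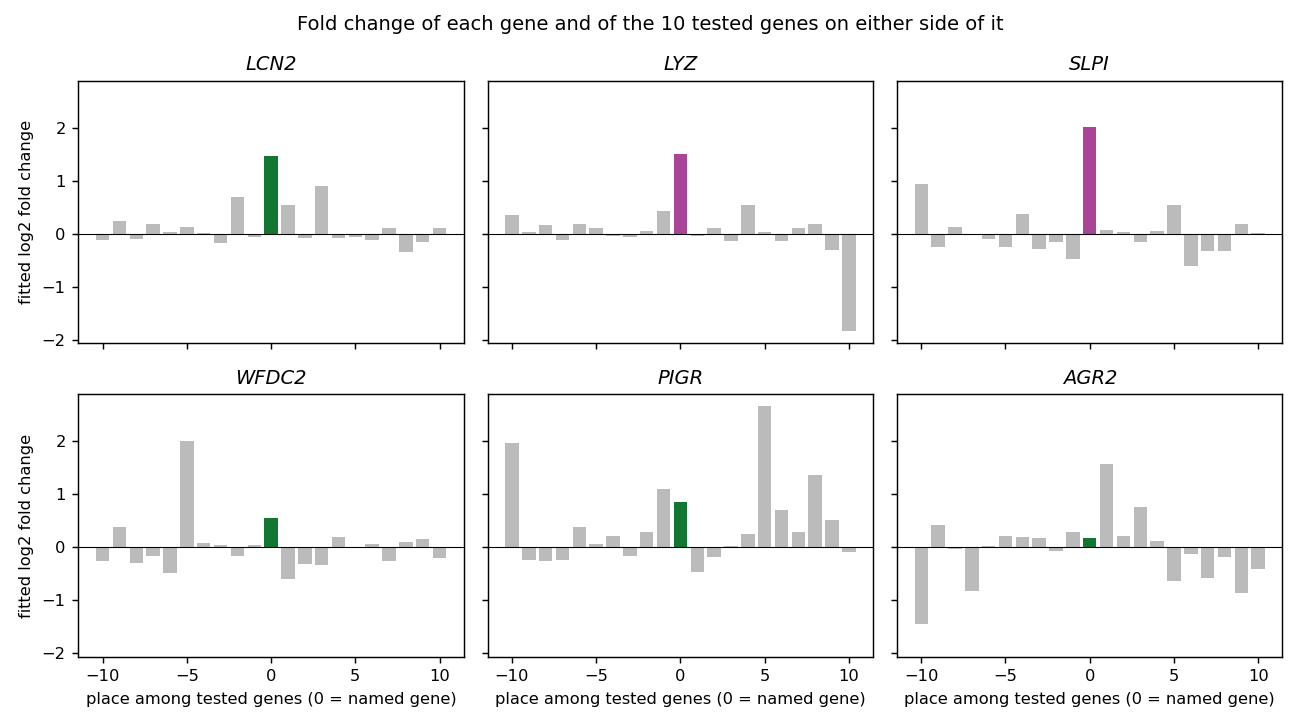
Fitted log2 fold change (vertical axis) of 6 genes of the set (coloured, at place 0) and of the 10 tested genes on either side in chromosome order (grey). LCN2, LYZ and SLPI stand above all of their neighbours, PIGR lies in a stretch with C4BPA at 2.66, and AGR2 at 0.18 is below its neighbour AGR3 at 1.57. LYZ and SLPI were chosen by their rise, so nothing is read from their place above their neighbours.

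Genes that work with or act on the set, and interferon-response genes, were read from 8 lists, without the 10 genes themselves. The lists were chosen with earlier results of these data known. Over all tested genes the median log2 fold change was 0.00, with 21.6% called higher and 21.1% lower, and the counts of each list stand beside these shares with no test of the list. For the partners of the trefoil factors, 6 of 14 genes were tested, and 4 were higher and 1 lower, with a median of 0.86. DMBT1 encodes a mucosal scavenger receptor and rose by 1.30 on the log2 scale (edgeR adjusted p = 3.96e-11), from 40.9 ± 3.59 to 101 ± 12.1 CPM (SD, n = 4 each). The gel-forming mucin gene MUC5B rose by 1.57 on the log2 scale and FCGBP, which encodes a mucus protein that binds TFF3, by 1.18 (edgeR adjusted p = 1.75e-06 and 1.15e-05).

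MUC5AC, the mucin that is secreted with TFF1, was at 146, 123, 114 and 122 CPM in the empty-vector libraries and at 190, 158, 133 and 253 CPM in the ADRA2A libraries. The groups overlapped and ADRA2A replicate 4 was the highest. The log2 fold change of MUC5AC was 0.54 ± 0.13 (SE; edgeR adjusted p = 0.00192), and without ADRA2A replicate 4 it was 0.34 (edgeR adjusted p = 0.00430). LINGO2, a reported TFF3 receptor, was the member that fell, by 1.54 at under 2 CPM (edgeR adjusted p = 0.00286). A gene this low can pass the filter through the empty-vector libraries alone, so nothing is read from its call. The gastrokine genes GKN1 and GKN2 were at 0 in all libraries.

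Of 23 other WAP-domain and antiprotease genes, 7 were tested, and 5 were higher and 1 lower, with a median log2 fold change of 0.12. SERPINA1, the alpha-1 antitrypsin gene whose product inhibits neutrophil elastase as SLPI does, rose from 346 ± 21.1 to 922 ± 42.4 CPM (SD, n = 4 each; log2 fold change 1.42; edgeR adjusted p = 3.20e-15). SERPINA3 rose by 0.66 (edgeR adjusted p = 0.00278), while SPINK5 fell by 1.07 (edgeR adjusted p = 2.83e-06), both on the log2 scale. SPINK1, a trypsin inhibitor gene, went from 1.01 to 2.02 CPM (log2 fold change 0.99, edgeR adjusted p = 0.00631). A gene as low as SPINK1 can pass the filter through the ADRA2A libraries alone, so nothing is read from its call. WFDC3, the gene beside WFDC2, was the only other gene with the WFDC name that was tested, at 0.729 and 0.481 CPM (log2 fold change -0.60; edgeR adjusted p = 0.325).

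Of 39 other mucosal antimicrobial genes only 9 were tested, and 7 were higher and 0 lower, with a median of 0.59. DUOX2, an oxidase gene of mucosal surfaces, rose by 1.54 on the log2 scale from 1.03 ± 0.375 to 3.01 ± 0.440 CPM (SD, n = 4 each; edgeR adjusted p = 9.88e-05). Genes as low as DUOX2 and LGALS4, the latter at 0.186 and 0.947 CPM, can pass the filter through the ADRA2A libraries alone. This favours a higher call, so nothing is read from these calls. The lectin gene ZG16B rose by 0.59, and the ribonuclease genes ANG and RNASE4 by 1.13 and 0.89 (edgeR adjusted p = 2.77e-05, 3.99e-04 and 1.34e-04). ANG and RNASE4 share a locus, so how reads were assigned to either is uncertain. The REG family genes REG1A, REG1B, REG3A and REG3G, lactoferrin (LTF) and S100A8 were among 19 genes at 0 in all libraries.

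In the list of endoplasmic reticulum and secretory cell genes around AGR2, 22 of 24 were tested, and 9 were higher and 4 lower, with a median of 0.04. Apart from AGR3, the largest were CREB3L1, a secretory pathway transcription factor gene (log2 fold change 0.64; edgeR adjusted p = 5.32e-05), and SELENOM (0.60; edgeR adjusted p = 0.0271). SELENOM lost its call in 6 of the 8 fits that left out 1 library, where the adjusted p reached 0.0806. Of the general disulfide isomerase genes, PDIA3 was at 831 and 808 CPM and P4HB at 845 and 844 CPM in the respective groups (edgeR adjusted p = 0.317 and 0.983). PDIA4 was slightly lower with ADRA2A, at 616 and 576 CPM (edgeR adjusted p = 0.0146). The 4 called lower were PDIA4, HSPA5, QSOX1 and MANF, with log2 fold changes between -0.17 and -0.09.

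Of 15 genes for immunoglobulin transport 13 were tested, and 5 were higher and 3 lower, with a median of 0.10. TNFSF13, which encodes the B-cell factor APRIL, rose by 0.82 on the log2 scale (edgeR adjusted p = 2.95e-08). AP1M2, an adaptor subunit for sorting of epithelial membrane proteins, fell by 0.87, and YES1, a kinase gene that acts in PIGR transport, fell by 0.55 (edgeR adjusted p = 2.92e-09 and 8.54e-06). The joining chain gene JCHAIN, a plasma cell gene, was at 0.

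Of 16 receptors and partners of LCN2, SLPI, REG4 and WFDC2, 10 were tested, and 4 were higher and 3 lower, with a median of 0.01. PLSCR1, a scramblase reported to bind SLPI at the cell membrane, rose from 83.8 ± 7.80 to 128 ± 5.13 CPM (SD, n = 4 each; log2 fold change 0.61; edgeR adjusted p = 2.37e-08) and its relative PLSCR4 rose by 1.16 (edgeR adjusted p = 7.56e-08). The membrane protease gene TMPRSS2 fell by 0.66 on the log2 scale (edgeR adjusted p = 0.00141). ELANE and CTSG, the neutrophil proteases that SLPI inhibits, were at 0.

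Among 24 transcription factor genes reported to act on promoters of the set, 22 were tested, and 10 were higher and 6 lower, with a median of 0.10. NFKBIZ, an NF-kappaB cofactor on which induction of LCN2 depends, rose from 119 ± 11.9 to 244 ± 17.9 CPM (SD, n = 4 each; log2 fold change 1.04; edgeR adjusted p = 4.38e-11). The NF-kappaB subunits NFKB1 and RELA had log2 fold changes of -0.11 and -0.04 (edgeR adjusted p = 0.0808 and 0.452). The epithelial factor ELF3 rose by 0.66, the endoderm factor HNF4A by 0.94 and the intestinal factor CDX2 by 1.50 (edgeR adjusted p = 7.73e-11, 1.77e-09 and 2.95e-06). The 6 factors called lower were GFI1 (log2 fold change -0.61), SOX9, GATA6 and KLF4 (-0.21 each), EHF (-0.10) and HIF1A (-0.07). Of the 25 interferon-response genes 24 were higher and 0 lower, with a median of 0.66, led by IFI44L (1.32), IFI6 (1.29), MX2 (1.18) and OAS2 (1.09) on the log2 scale. This list was chosen because the empty-vector libraries were reported to vary in it, so nothing is read from its count. Empty-vector replicate 3 was the lowest library for IFI44L, IFI6, MX2 and OAS2, as it was for LCN2. The highest empty-vector library was replicate 1 for these 4 genes and replicate 2 for LCN2. In the rest of the tested set the lowest was replicate 3 for SLPI, replicate 1 for LYZ, and replicate 4 for AGR2, PIGR, WFDC2 and TFF2. A link between LCN2 and the interferon genes was not tested.

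**Figure D5:**
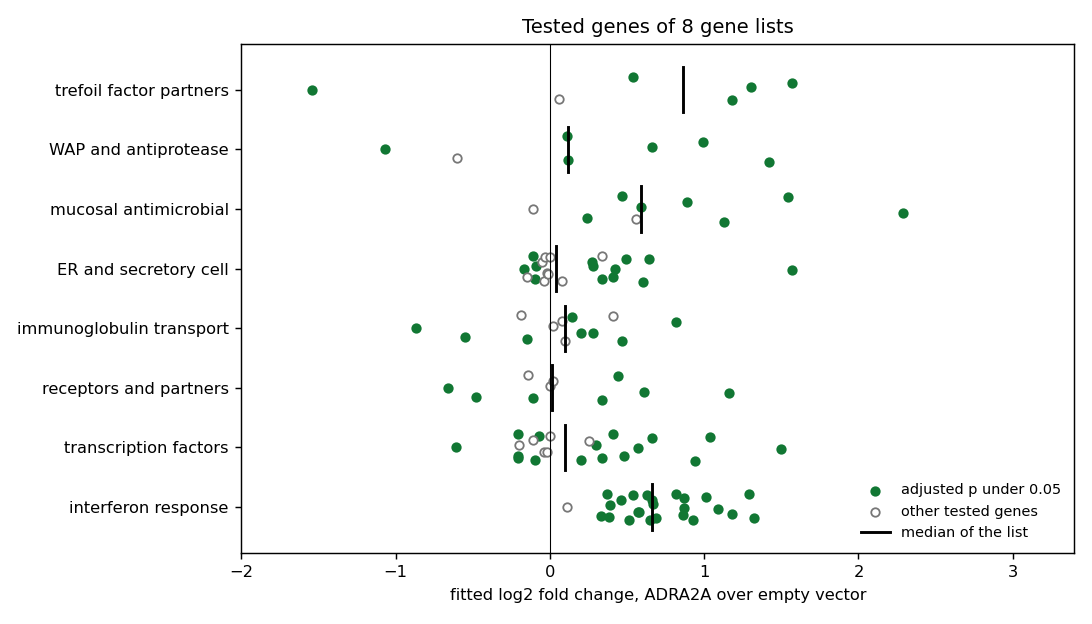
Fitted log2 fold change (horizontal axis) of the tested genes in 8 gene lists, 1 point per gene, filled green where the edgeR adjusted p was under 0.05 and open otherwise, with a black bar at the median of each list. The interferon, trefoil partner and antimicrobial lists have medians of 0.66, 0.86 and 0.59, and the other 5 lie between 0.01 and 0.12.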

How the data were processed

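Bulk RNA sequencing of 8 CFPAC-1 samples was analysed. The authors deposited 1 table of RSEM expected counts per gene, with decimals in 4.61% to 4.90% of the entries of a library, not scaled between samples. Cutadapt, STAR, RSEM, DESeq2 and hg38 are named in the submitters' processing notes, and the annotation and use of strand are not given in the sources used here. All 8 columns were matched to samples by the bracketed name in the titles. Expected counts were rounded and filtered with filterByExpr, and 14785 genes were tested in edgeR 4.0.16 (R 4.3.3) with TMM factors, the quasi-likelihood test and group as the only term. Log2 CPM for scores and profiles used a prior count of 2. The standard error is the log2 fold change over the root of F, with a t-based 95% interval. Coordinates are from GENCODE 44 on GRCh38, the build that the notes' name hg38 denotes, with 99.4% of identifiers matched. The fit was tested on simulated data.

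The genes of the set and the lists were chosen with earlier results of these data known. All 10 genes were named, as were up to 4 genes a list. The genes from lists had an adjusted p under 0.05, a log2 change of 0.5 or more in size and a mean of 2 CPM or more in either group. Single genes were also picked after their values were seen (KRT8, EPCAM, CFTR, CD14, ITGAM, CD68, KDR, LINGO2, WFDC3, LGALS4, PDIA3, P4HB, PDIA4, HSPA5, QSOX1, MANF, NFKB1, RELA, GFI1, SOX9, GATA6, KLF4, EHF, HIF1A and those at 0). Alternatives were DESeq2 1.42.0, limma 3.58.1 voom, other factors, other filters, a replicate block and leaving out each library. Same-numbered libraries of the groups were not paired by the labels, and the correlations of their deviations lay between -0.042 and 0.070. The intervals of the fold changes include the spread between libraries, and the floor of TFF3 covers counting error only.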

Additional observations from a re-analysis of the deposited data

How the results depend on the processing

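Of the genes listed by name, 4 were called higher in each of the 15 alternative fits, and 0 were lower. Across these fits the log2 fold changes were 1.41 to 1.54 for LCN2, 0.81 to 0.93 for PIGR, 0.50 to 0.57 for WFDC2, 0.16 to 0.21 for AGR2 and 0.05 to 0.17 for TFF2, which was called in 0 of them (adjusted p 0.269 to 0.746). SLPI stayed between 1.97 and 2.06 and LYZ between 1.45 and 1.57. The 112 tested genes of the lists gave 84 calls, and 73 to 84 under the alternatives, beside 42.7% of all tested genes called. The interferon list gave 24 of the 84 calls. The lists were chosen with earlier results known, so nothing is read from this count. All 14785 tested genes gave 6314 calls, and the alternatives gave 5703 to 6550. With the replicate number as a block, which the labels do not show to pair the samples, the calls were 6400 over all genes, 83 over the lists and 4 over the set. Upper quartile factors lowered the share of higher calls from 50.6% to 46.4%. Without the filter, edgeR assumed the same spread around the trend for every gene. Depth limits TFF1, TFF3 and REG4, for which no change was detectable. Of the set, the called values moved by under 1.5 times and none lost its call. SELENOM lost its call in 6 of 8 fits without 1 library.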
